A study of Solanum lycopersicum with 28 samples.

Results

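Windows in which the heterochromatin mark H3K9me2 covered an intermediate share of the bases were examined in the leaf epigenome of tomato (Solanum lycopersicum). Chromosomes 1 and 3 to 12 were divided into windows of 100 kb from position 0, and windows touching the first or last 1 Mb were left out. Of the 7243 windows, 1104 (15.2%) had 20% to 40% of their bases in deposited H3K9me2 peaks, and these are termed intermediate windows. They were compared with 1729 windows (23.9%) with under 20% cover, termed low windows, and 4410 windows (60.9%) with over 40% cover, termed high windows. The windows were therefore chosen by the measured H3K9me2 values, which are given as a description only. Mean H3K9me2 cover was 31.2% in intermediate windows, 5.32% in low windows and 63.6% in high windows.

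The data are peak lists from chromatin immunoprecipitation followed by sequencing (ChIP-seq), in which an antibody pulls down the DNA carried by its target, here a modified histone or a polymerase. The fourth leaves of wild-type M82 plants were taken at 4 weeks, after growth at 24 °C with 16 h of light. There were 27 targets with 1 library each, 26 histone modifications and RNA polymerase II (Pol2), and 1 Input library of chromatin without immunoprecipitation. All libraries thus share genotype, age and growth conditions, and a comparison here is one between regions within a list, with no replicate of any target. A whole leaf mixes cell types, so that a peak in part of the cells and a weaker peak in all of them cannot be told apart.

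In plants, H3K9me2 is placed by histone methyltransferases of the KRYPTONITE family, in a loop with DNA methylation, and lies mainly on transposons and other repeats. Tomato chromosomes have gene-rich distal arms and long, repeat-rich pericentromeric regions. Acetylated histones, H3K4me3 and Pol2 mark the starts and bodies of active genes, whereas H3K27me3 is placed by Polycomb repressive complex 2 on silent, often developmentally controlled genes.

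Whether such windows lie where a chromosome arm passes into a centre was examined from the H3K9me2 cover around them. The mean cover of the 10 windows (1 Mb) on either side was used. Only 12 intermediate windows (1.09%), on 4 chromosomes, had one side under 20% and the other over 40%. Another 497 (45.0%) had both sides over 40%, 72 (6.52%) had both sides under 20%, 522 (47.3%) lay in stretches that met none of these limits, and 1 lay too near a left-out chromosome end. By this measure few of the windows sit at a single border, and the name intermediate refers only to their own H3K9me2 cover. The windows with both sides over 40% are termed centre-set and those with both sides under 20% arm-set.

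The windows lay mostly in short runs, although many were next to another intermediate window. They formed 696 runs of adjacent windows, of which 465 (66.8%) held 1 window, and the longest run held 10 windows. The immediate neighbours were both high windows in 308 cases (27.9%), both low windows in 85 cases (7.70%), and 1 of each in 71 cases (6.43%). At least 1 neighbour was itself intermediate for 639 of the 1104 windows (57.9%), while intermediate windows made up 15.2% of all windows. The remaining 465 stood alone. Whether this departs from a random placement was not tested. Their number ranged from 78 on chromosome 6 to 177 on chromosome 1, and their share of a chromosome's windows from 12.5% on chromosome 3 to 20.1% on chromosome 10.

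Along a chromosome, with 0 at the end and 1 at the middle, the median relative position was 0.416 (quartiles 0.266 and 0.613), against 0.157 for low and 0.668 for high windows. The midpoint of the assembled chromosome is used here, which need not be the centromere. Intermediate windows made up 27.7% of all windows at relative positions from 0.2 to 0.3, their largest share, and 6.54% from 0.9 to 1. They were thus most frequent where low and high windows occurred at similar rates (39.6% and 32.7%), yet were present in every step of 0.1 along the scale.

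**Figure D1:**
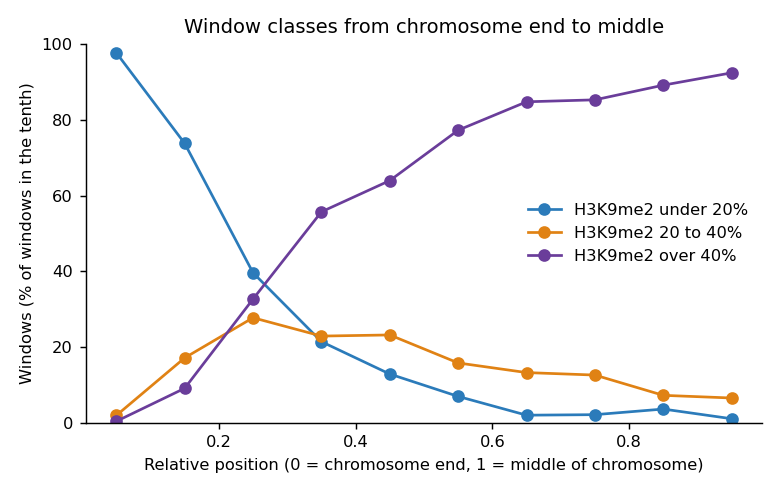
Share of windows in each H3K9me2 class (y axis, percent of windows) by relative position along the chromosome (x axis, 0 at the end and 1 at the middle), with 1 point for each step of 0.1 and the 11 chromosomes together. Intermediate windows peak at 27.7% from 0.2 to 0.3 and fall to 6.54% at the middle, where 92.4% of windows are high.

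An intermediate window held on average 9.56 H3K9me2 peak centres, against 10.95 in high windows and 2.36 in low windows. The median peak length was 1775 bp in intermediate, 3057 bp in high and 1358 bp in low windows. A q-value under 0.05 was reached by 43.8% of H3K9me2 peaks in intermediate, 50.8% in high and 42.5% in low windows. All deposited H3K9me2 peaks were used to define the classes. The median gap between neighbouring H3K9me2 peaks was 3612 bp in intermediate windows (quartiles 1420 and 9152 bp), 1644 bp in high windows and 9695 bp in low windows. Gaps over 20 kb made up 8.17% of the gaps in intermediate windows, 0.997% in high windows and 36.6% in low windows. At the limits of the rule, the nearest windows had 19.997% (outside) and 20.018% (inside) H3K9me2 cover, and 40% (inside) and 40.012% (outside). Mean Pol2 cover was 10.3% in the 40 windows from 19% to 20% and 9.94% in the 35 windows from 20% to 21%. At the upper limit it was 3.65% in the 69 windows from 39% to 40% and 2.42% in the 90 windows from 40% to 41%, and H3K27me3 covered 6.95% and 5.45% there. Mean Pol2 cover was thus similar on both sides of the lower limit and lower outside than inside the upper limit.

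The other lists were described by their cover, the percentage of a window's bases that lie in peaks of the list with a fold enrichment above 1.5. Of the 26 other targets, 18 fell in mean cover from low through intermediate to high windows on each of the 11 chromosomes, namely H3K27me3 and 17 of the 19 lists that the study classes as euchromatin. Another 4 rose on each of the 11 chromosomes, all of them from the 5 other lists that the study classes as constitutive heterochromatin (H3K23me1, H3K14me1, H3K56me1 and H3K56me2). The remaining lists were H3K36me3, H3K23me3, H3K27me1 and H3K27me2, which are taken up below. The Input fell as well, from 8.09% in low windows through 5.98% in intermediate windows to 4.97% in high windows, and its part in the other lists was not tested. The study drew its classes partly from these libraries, so the grouping is not independent evidence of the direction.

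**Figure D2:**
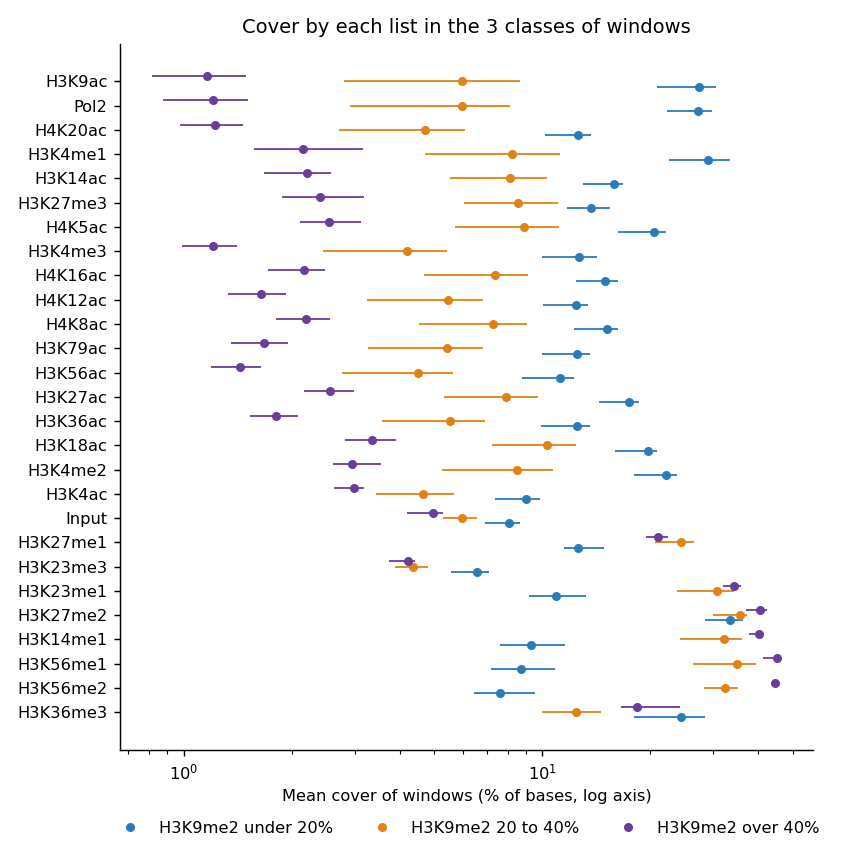
Mean cover of windows by each list except H3K9me2 (x axis, percent of bases, log axis), in low, intermediate and high windows. Points are means over all windows of a class and lines span the lowest to the highest of the 11 chromosome means. The intermediate windows lie between the other classes for most lists, but below both for H3K36me3 (12.4%) and above both for H3K27me1 (24.4%).

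Marks of transcription fell steeply already at intermediate H3K9me2 cover. Pol2, the enzyme that transcribes protein-coding genes, covered 5.98% of the bases in intermediate windows, against 27.2% in low windows and 1.20% in high windows. The log2 ratio to low windows was −2.18 (−3.32 to −1.81 over the 11 chromosomes) and that to high windows was 2.31 (1.61 to 2.97). From medians over windows in place of means, the log2 ratio to low windows was −2.93. H3K9ac, an acetylation found at the starts of active genes, showed nearly the same levels, with 27.3%, 5.99% and 1.16% in low, intermediate and high windows. The difference between classes was thus larger than the spread over chromosomes for both lists.

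The intermediate windows varied widely among themselves in these marks. Pol2 cover ranged from 0 to 48.5% with a median of 3.55% and an upper quartile of 9.40%. No Pol2 peak base was present in 286 of the 1104 windows (25.9%, 95% Wilson interval 23.4% to 28.6%), against 5.67% of low windows and 62.3% of high windows. For H3K9ac the share of intermediate windows without any peak base was 24.5%, for H3K4me3 it was 21.5% and for H3K27me3 it was 22.4%. These intervals cover counting error only, and neighbouring windows are not independent.

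Pol2 peaks were fewer in intermediate windows but of similar strength. An intermediate window held 6.41 Pol2 peaks on average, against 24.6 in low windows and 1.39 in high windows. The median fold of those peaks was 2.99 in intermediate, 3.18 in low and 2.96 in high windows, and their median length was 524, 590 and 501 bp. Of the Pol2 peaks in intermediate windows, 95.1% had a q-value under 0.05, a share close to the 95.8% of low windows.

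Mono-, di- and trimethylation of H3 lysine 4 also declined. H3K4me1, which in plants lies over the bodies of transcribed genes, covered 28.9%, 8.25% and 2.16% of the bases in low, intermediate and high windows. Its distribution over intermediate windows was uneven, with a median of 3.40%, a highest value of 75.2% and no peak base in 33.2% of windows. H3K4me2 covered 22.2%, 8.49% and 2.95%, and H3K4me3, a mark of gene starts, 12.6%, 4.19% and 1.21%. H3K4me1 and H3K4me3 peaks were also shorter in intermediate windows, with median lengths of 742 bp and 657 bp, against 1602 bp and 940 bp in low windows.

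The 13 acetylations had mean covers of 4.50% (H3K56ac) to 10.3% (H3K18ac) in intermediate windows, and all 13 fell in order on each of the 11 chromosomes. Their median log2 ratio was −1.17 to low windows and 1.73 to high windows, beside medians of −1.04 and 1.64 over all 26 other targets. At least 1 acetylation covered 17.9% of the bases in intermediate windows, 44.6% in low windows and 6.53% in high windows. The 19 euchromatin lists together covered 32.8% in intermediate windows, 70.2% in low windows and 27.8% in high windows. The joint euchromatin cover of intermediate windows was thus close to that of high windows, of which H3K36me3 alone covered 18.4%.

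H3K27me3 had a smaller log2 decline from low to intermediate windows than Pol2, the acetylations and the H3K4 methylations, but a larger one than H3K23me3 (−0.59). It covered 8.55% of the bases in intermediate windows, against 13.7% in low and 2.40% in high windows, with a log2 ratio to low windows of −0.68 (−1.08 to −0.32 over chromosomes) and to high windows of 1.83. In single windows it ranged from 0 to 32.2% with a median of 7.11%. The peaks themselves were similar, with a median fold of 1.71 in intermediate and 1.65 in low windows and a median length of 2520 and 2251 bp. The size of the decline depended on the fold limit. With a fold above 2 the cover was 2.22% in intermediate and 2.38% in low windows, and it was highest in intermediate windows on 5 of the 11 chromosomes.

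To place all lists on 1 scale, the share of the difference between low and high windows that was still present in intermediate windows was computed, termed the retained share (100% means cover as in low windows and 0% as in high windows). H3K9me2 itself, whose value follows from the rule, stood at 55.6%. H3K27me3 had the highest retained share of the 24 other target lists with a value, 54.5% (29.9% to 76.2% over the 11 chromosomes). It stood above Pol2 (18.4%) and H3K4me1 (22.8%) on each of the 11 chromosomes. The acetylations ranged from 18.5% (H3K9ac) to 43.3% (H3K14ac). The Input itself had a retained share of 32.4% (6.92% to 56.6% over the 11 chromosomes), above those of Pol2, H3K9ac and H3K4me1. A share near this value is therefore not particular to a mark. The Input was not part of the group comparison below. Pol2, H3K9ac and H3K4me1, which had low retained shares, are with H3K36me3 and H3K9me2 the 5 lists whose files carry no replicate tag, and the part of this difference in handling was not tested. H3K36me3 and H3K27me2 have no value because their covers in low and high windows differed by less than 1.5-fold.

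The retained shares were compared between groups of lists by permutation of the lists. The 18 euchromatin lists retained 30.7% ± 9.65 (SD, n = 18 lists) and the 5 constitutive heterochromatin lists 12.6% ± 29.6 (SD, n = 5 lists), a difference of 18.1 percentage points (two-sided exact permutation test, p = 0.0714, Benjamini-Hochberg adjusted p = 0.0714 over 2 tests). The 13 acetylations retained 34.7% ± 6.68 (SD, n = 13 lists) and the 10 other methylations 20.2% ± 24.2 (SD, n = 10 lists), a difference of 14.5 points (two-sided permutation test, p = 0.0343, adjusted p = 0.0685). Neither difference passed 0.05 after adjustment. Without H3K27me1 the differences were 5.18 points (exact permutation test, adjusted p = 0.329) and 7.96 points (exact permutation test, adjusted p = 0.156). The adjusted p of the second comparison was 0.0029 without H3K27me3, 0.0296 without H3K9ac, 0.0421 without H3K56me2 and 0.0453 without chromosome 1, and that of the first was 0.0421 without H3K56me2 (permutation tests). The lists share windows and many peaks, so they are not independent of each other. Peak format also goes with the groups. The 5 constitutive heterochromatin lists hold broad peaks and most euchromatin lists narrow ones. Most acetylation lists are narrow and most methylation lists broad. The fold limit kept 78200 of 191562 H3K27me1 peaks but 77270 of 78175 H3K9ac peaks. With all deposited peaks the first difference was −1.67 points (exact permutation test, adjusted p = 0.754). These differences cannot be told apart from peak format.

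The constitutive heterochromatin lists that rose with H3K9me2 had high cover in intermediate windows, but from weak peaks. A q-value under 0.05 there was reached by 0.0343% of H3K56me2, 0.00784% of H3K56me1, 0.0138% of H3K14me1 and 0.00981% of H3K23me1 peaks. For the Input it was 2.08%. Median folds ran from 1.61 (H3K23me1) to 1.76 (H3K56me2), against 2.11 for the Input. These lists are broad, with fold and q-value averaged over each peak, whereas the Input list is narrow. The Input values are therefore not on the same scale and do not show weaker enrichment than in the Input. H3K56me2 covered 32.4% of the bases, against 7.62% in low and 44.5% in high windows, H3K56me1 covered 35.02% against 8.74% and 45.0%, and H3K14me1 32.1% against 9.28% and 40.3%. H3K23me1 covered 30.7% against 10.9% and 34.3%. No intermediate window lacked H3K56me2, whose cover ranged from 8.94% to 52.5%. With the peaks limited to a fold above 2, which leaves 0.136% to 3.77% of the bases of intermediate windows, H3K14me1, H3K56me1 and H3K56me2 were higher in intermediate than in high windows (0.136% against 0.0894%, 0.693% against 0.488% and 3.77% against 3.49%).

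H3K27me1, a heterochromatin monomethylation that in Arabidopsis is placed by ATXR5 and ATXR6, had its highest mean cover in intermediate windows on each of the 11 chromosomes. It covered 24.4% of the bases, against 12.5% in low and 21.05% in high windows (log2 ratios 0.96 and 0.21). In finer steps of H3K9me2 cover it was highest, at 25.4%, in windows from 35% to 40%. This order depended on the fold limit. Most of its peaks were weak, with a median fold of 1.57 in intermediate windows and 0.0238% of peaks with a q-value under 0.05. With all deposited peaks the cover rose in order, with 18.1%, 39.2% and 47.5% in low, intermediate and high windows, and intermediate windows were not the highest class on any chromosome.

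**Figure D3:**
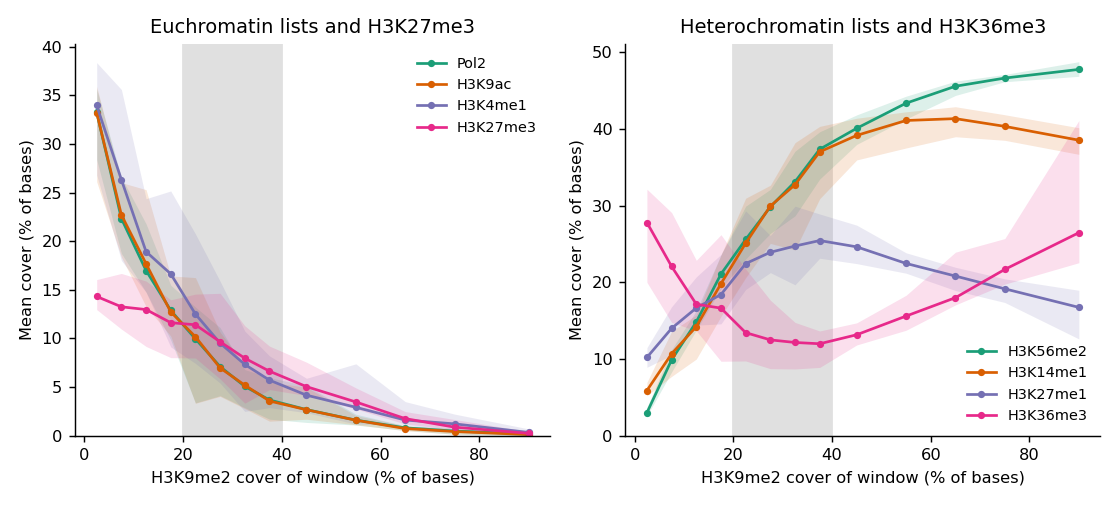
Mean cover of windows (y axis, percent of bases) by 8 lists in steps of H3K9me2 cover (x axis, percent of bases). Points and lines are means over all windows of a step, pale bands span the 11 chromosome means, and grey marks 20% to 40%. Pol2, H3K9ac, H3K4me1 and H3K27me3 fall across the range, H3K56me2 rises, H3K27me1 is highest from 35% to 40% (25.4%), and H3K36me3 is lowest there (11.995%).

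H3K36me3, which lies over the bodies of transcribed genes, showed the reverse order to H3K27me1. It covered 12.4% of the bases in intermediate windows, against 24.3% in low and 18.4% in high windows, and was lowest in intermediate windows on each of the 11 chromosomes (log2 ratios −0.97 and −0.57). The list changed in composition across the classes. The median peak length was 671 bp in intermediate windows against 2560 bp in low windows, the median fold 1.59 against 1.91, and the share of peaks with a q-value under 0.05 was 11.5% against 65.5%. In high windows that share was 1.98%. By number rather than length, intermediate windows held more peaks than low windows, 8.29 against 6.54 per window, and fewer than the 16.7 of high windows.

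The bases shared with other lists also differed between the classes. In low windows 83.1% of H3K36me3 bases lay in H3K4me1 peaks and 3.71% in H3K9me2 peaks, in high windows 9.18% and 84.4%, and in intermediate windows 49.1% and 42.8%. Each of these shares changed in order on all 11 chromosomes. H3K4me1 and H3K9me2 themselves covered different shares of the classes, and relative to the cover of the second list the overlap was 2.87, 5.96 and 4.25 times for H3K4me1 and 0.698, 1.37 and 1.33 times for H3K9me2 in low, intermediate and high windows. Relative to cover, neither overlap therefore changed in one order across the classes. Limited to peaks with a q-value under 0.05, H3K36me3 fell in order, with 21.4% in low, 6.38% in intermediate and 1.83% in high windows, and with a fold above 2 it covered 15.5%, 5.44% and 1.59%. The minimum in intermediate windows was therefore a property of the list with its weaker peaks included.

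**Figure D4:**
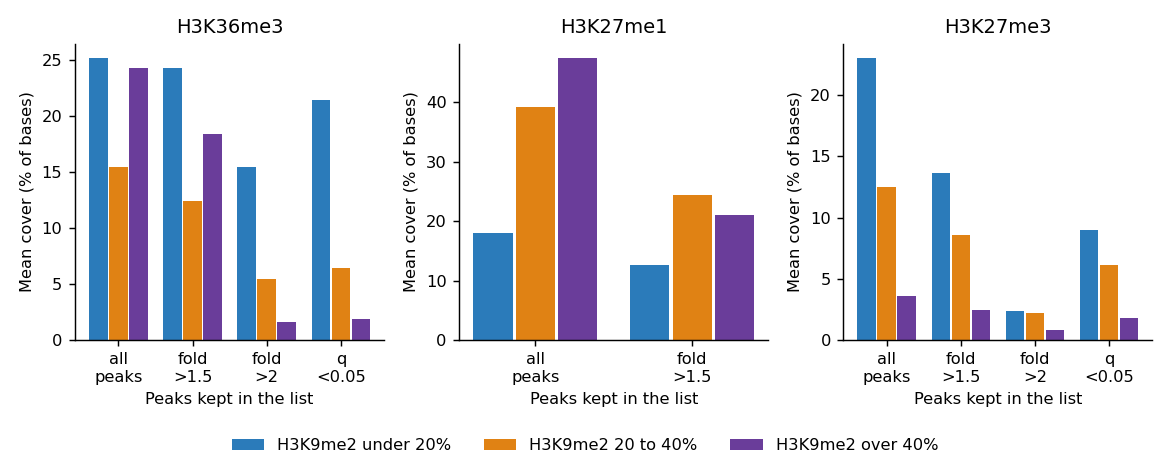
Mean cover (y axis, percent of bases) of low, intermediate and high windows by H3K36me3, H3K27me1 and H3K27me3 when all deposited peaks, those with a fold above 1.5, those with a fold above 2 or those with a fold above 1.5 and a q-value under 0.05 are kept (x axis). Bars have no error because each target has 1 library, and H3K27me1 has too few peaks for the stricter limits. The order of the classes changes with the limit for H3K36me3 and H3K27me1.

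H3K23me3, known from Tetrahymena and Caenorhabditis elegans as a heterochromatin mark and classed by the study as euchromatin, fell from 6.59% in low windows to 4.36% in intermediate windows and was close to the 4.22% of high windows. Its peak number rose, from 12.1 per low window to 14.8 per intermediate and 16.7 per high window, while the median length fell from 427 to 225 and 216 bp. In low windows 84.2% of its bases lay in H3K4me3 peaks, in intermediate windows 29.96% and in high windows 8.27%. The share of its bases in H3K14me1 peaks was 7.79%, 43.0% and 51.7% in the same order. Both changes ran in order on all 11 chromosomes, as did the covers of H3K4me3 (12.6%, 4.19% and 1.21%) and H3K14me1 (9.28%, 32.1% and 40.3%) over all bases. Relative to those covers the overlap was 6.66, 7.15 and 6.83 times for H3K4me3 and 0.839, 1.34 and 1.28 times for H3K14me1, so that the share in H3K4me3 peaks followed the cover of H3K4me3 closely. H3K27me2, the other mark classed as facultative heterochromatin, changed little, with 33.3%, 35.6% and 40.5% in low, intermediate and high windows and 0.475% of peaks in intermediate windows with a q-value under 0.05. With a fold above 2 the order turned, with 4.26%, 2.82% and 1.68%.

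The bases that H3K27me3 shared with other marks also differed between the classes. In intermediate windows 23.3% of H3K27me3 bases lay in H3K9ac peaks, against 43.0% in low and 15.7% in high windows. The share in H3K4me2 peaks was 25.8%, against 17.5% and 35.3%, and that in H3K4me3 peaks 15.4%, against 12.9% and 20.3%. Each of these changed in order on all 11 chromosomes. All 3 of these marks covered less of the bases as H3K9me2 cover increased, and relative to the cover of the second list the overlap rose. From low through intermediate to high windows it was 1.58, 3.89 and 13.5 times for H3K9ac, 0.79, 3.04 and 11.98 times for H3K4me2, and 1.02, 3.68 and 16.8 times for H3K4me3. The share of H3K27me3 bases in H3K9ac peaks thus fell, but by less than the cover of H3K9ac. The ratio to cover can reach higher values where the second list covers less. In addition, 57.8% of high windows had no H3K9ac base and 52.9% no H3K27me3 base, so that both lists were confined to part of the windows. The rise of the ratio is therefore not a measure of closer association.

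H3K4me3 was examined in the same way. In intermediate windows 31.4% of H3K4me3 bases lay in H3K27me3 peaks, against 13.97% in low and 40.4% in high windows, and the share was above that of low windows on all 11 chromosomes. The share of H3K4me3 bases in H3K9ac peaks was 57.6%, 74.9% and 50.9% in intermediate, low and high windows, and that in Pol2 peaks was 33.5%, 47.0% and 27.6%. Relative to the cover of the second list, in the same order, the overlap was 9.61, 2.75 and 43.8 times for H3K9ac and 5.60, 1.73 and 22.9 times for Pol2, so that these shares also fell by less than the covers of H3K9ac and Pol2. The same limit of the ratio applies here. Overlap of lists in leaf tissue cannot be told apart from marks that are present in different cells.

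**Figure D5:**
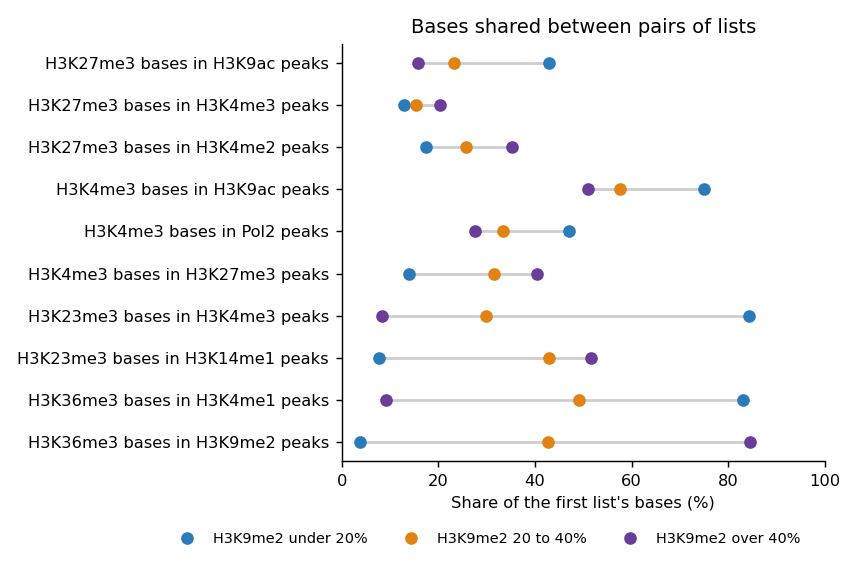
Share of the bases of a first list that lie in peaks of a second list (x axis, percent) for 10 pairs of lists (y axis), in low, intermediate and high windows, not divided by the cover of the second list. In intermediate windows 31.4% of H3K4me3 bases lie in H3K27me3 peaks, against 13.97% in low windows, and 49.1% of H3K36me3 bases lie in H3K4me1 peaks, against 83.1%.

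Since H3K9me2 takes up more of an intermediate than of a low window, covers were also computed over the bases outside H3K9me2 peaks. There Pol2 covered 8.63% in intermediate windows, against 28.7% in low and 3.25% in high windows, and fell in order on all 11 chromosomes. H3K9ac covered 8.71% against 28.8% and 3.19%. H3K27me3 covered 12.4%, against 14.4% in low and 6.57% in high windows, in order on 9 of the 11 chromosomes. Outside H3K9me2, intermediate windows therefore held 3.32 times less Pol2 and 1.17 times less H3K27me3 than low windows.

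Peaks of other heterochromatin lists, nearly all with q-values above 0.05, also lay outside H3K9me2 peaks in the intermediate windows. Outside H3K9me2 peaks H3K56me1 covered 27.7% (6.85% in low and 36.5% in high windows), H3K56me2 18.7% (4.402% and 26.4%) and H3K27me1 25.3% (12.3% and 25.7%). Inside H3K9me2 peaks H3K56me2 covered 62.5% of the bases, against 54.9% in high windows, H3K14me1 57.4% against 48.4%, H3K23me1 46.5% against 37.6% and H3K27me1 22.4% against 18.4%. Each of these 4 was higher in intermediate windows on all 11 chromosomes. H3K56me1 differed less, with 51.2% against 49.9%, and was higher on 8 of the 11. All these covers used peaks with a fold above 1.5, and other limits were not examined inside H3K9me2 peaks. In low windows the values inside H3K9me2 peaks were 65.0% for H3K56me2, which was above the intermediate value on 10 of the 11 chromosomes, 48.5% for H3K14me1, 39.7% for H3K23me1 and 17.4% for H3K27me1. By contrast, Pol2 covered 0.139% and H3K27me3 0.0966% of the bases inside H3K9me2 peaks in intermediate windows. As shares of a list's own bases there, 0.725% for Pol2, 0.353% for H3K27me3 and 60.3% for H3K56me2 lay inside H3K9me2 peaks.

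Distance from the nearest H3K9me2 peak was compared in the same way. From 2 to 5 kb away, Pol2 peaks covered 9.16% of 100-bp bins in intermediate windows, 17.9% in low windows and 5.95% in high windows. From 10 to 20 kb away the values were 17.7%, 27.6% and 12.8%. For H3K27me3 at 2 to 5 kb they were 19.2%, 20.7% and 14.95%. At 5 to 10 kb they were 15.7%, 15.2% and 12.8%, and at 10 to 20 kb 12.5%, 13.7% and 9.76%. The order of intermediate and low windows for H3K27me3 thus changed with distance. At matched distance the order of the classes for Pol2 was thus the same as for the whole window, with a smaller gap.

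The surroundings of an intermediate window went with its content. In the 72 arm-set windows Pol2 covered 11.1% of the bases and in the 497 centre-set windows 3.43%, and it was higher in the arm-set windows on 10 of the 11 chromosomes. H3K9ac (11.01% against 3.23%) was higher on all 11 and H3K27me3 (11.5% against 5.97%) on 10. H3K56me2 covered 25.8% against 34.99% and was lower in arm-set windows on each of the 11. H3K27me1 (21.6% against 23.5%) and H3K36me3 (14.6% against 12.4%) were higher in arm-set windows on 4 and 6 chromosomes. H3K9me2 cover itself was 26.7% in arm-set and 33.1% in centre-set windows, and its part in these differences was not tested. The 12 windows between a low and a high side had 6.39% Pol2, 9.40% H3K27me3 and 27.5% H3K56me2. For these lists the values lay between those of the arm-set and centre-set windows. This did not hold for every list. H3K36me3 (9.83%), H3K27me2 (26.3%) and the Input (4.89%) were below both sets, and H3K23me3 (4.54%) was above both.

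Single windows show how far the members differ. Positions refer to M82 genome version 1, with the first base numbered 1. The window chr9:4900001-5000000, in an arm, had both the highest Pol2 (48.5%) and the highest H3K27me3 cover (32.2%), with 53.5% H3K9ac, 21.2% H3K9me2 and 0.774% H3K36me3. The window chr8:57000001-57100000, also arm-set, had the highest H3K36me3 cover (73.9%) together with 75.2% H3K4me1, 2.64% Pol2 and 21.5% H3K9me2. These windows thus held about equal H3K9me2 cover and very different sets of marks.

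The highest H3K56me2 cover (52.5%) was found in the centre-set window chr11:23400001-23500000, where Pol2, H3K4me1, H3K4me3 and H3K27me3 were all at 0 and H3K9me2 at 38.9%. The window nearest to the median ranks of 5 lists, chr11:34900001-35000000, had 30.9% H3K9me2, 3.54% Pol2, 5.50% H3K27me3, 38.6% H3K27me2 and 33.1% H3K56me2. The longest run, chr10:56300001-57300000, had mean covers of 28.8% H3K9me2, 6.64% Pol2, 10.2% H3K27me3 and 31.7% H3K56me2 over its 10 windows. Which genes or repeats lie in these windows was not analysed here.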

How the data were processed

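The authors trimmed reads with Trimmomatic 0.38, aligned them with Bowtie2 2.3.5 to M82 genome version 1, discarded duplicates and low-quality alignments, and found peaks with MACS2 2.2.7.1. The deposited lists, 17 narrow and 11 broad, give per peak a fold (ratio of pileup to local background), and the −log10 of a p-value and of a q-value, averaged over the peak in broad lists. Whether a list was made against the Input, or pools the 2 biological replicates of the methods, is unknown. Of the 27 target lists, 5 carry no replicate tag. Read depth is unknown.

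Peaks were merged per list. Chromosome length was the largest peak end in any list. H3K9me2 entered with all deposited peaks and other lists with a fold above 1.5. Windows are not replicates, so tests permuted lists (100000 resamples where exact enumeration was not used), adjusted over 2 tests. The 11 chromosomes of 1 library give a spread, not an error between plants. Python 3.11.15, numpy 2.4.6, pandas 2.3.3 and scipy 1.17.1 were used, and the calculations were checked on simulated data. Named windows were those with the highest Pol2, H3K27me3, H3K36me3 and H3K56me2 cover, the longest run, and the window nearest the median ranks of H3K9me2, Pol2, H3K27me3, H3K27me2 and H3K56me2. The windows and lists were chosen with earlier results of these data known. Shared bases, distances, gaps, joint covers and windows without peaks were added after the data were seen. Chromosome 2 is outside the rule and was not used.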

Additional observations from a re-analysis of the deposited data

How the results depend on the processing

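No paired analysis was possible because each target has 1 library. With 1 library, a whole leaf and unknown depth, no difference between windows can be set against variation between plants. A missing peak means no detectable signal at this depth, not absence of the mark. Nearly all peaks of the 5 constitutive heterochromatin lists other than H3K9me2, and of H3K27me2, had q-values above 0.05. Below that limit, these 5 lists had too few peaks for a value.

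In what follows, each list is given as its log2 ratio of cover in intermediate windows, to low or to high windows, and the retained shares as differences in percentage points with adjusted p from permutation tests. A ratio counts as moved when it shifts by more than 1 SD over the 11 chromosomes, and the causes were not tested. With all deposited peaks, H3K36me3 was −0.71 to low windows, H3K27me1 was 1.12 to low and turned to −0.28 to high windows, and the euchromatin minus constitutive difference turned to −1.67 points. With a q-value under 0.05, H3K36me3 was −1.75 to low windows, and the ratios to high windows turned for H3K36me3 (1.81) and H3K27me2 (1.38). With a fold above 2, H3K36me3 was −1.51 and H3K27me3 −0.10 to low windows, and the ratios to high windows turned for H3K36me3 (1.77), H3K27me2 (0.74), H3K14me1 (0.61), H3K56me1 (0.51) and H3K56me2 (0.11). The euchromatin minus constitutive difference was then 86.1 points (exact permutation test, adjusted p = 0.0026, 19 against 3 lists). The 3 constitutive lists left covered few bases, H3K14me1 for example 0.0302%, 0.136% and 0.0894% in low, intermediate and high windows. Their retained shares thus rest on small differences in cover.

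With H3K9me2 peaks of a q-value under 0.05 defining the windows (1824 intermediate), 45 of 54 ratios of all lists moved and none turned. The ratios to low windows were −2.74 for Pol2, −0.65 for H3K36me3, −1.12 for H3K27me3 and 0.64 for H3K27me1. Pol2 was 1.58 to high windows, and the first difference was 9.04 points (exact permutation test, adjusted p = 0.0381, 17 against 4 lists). Peak centres in place of bases gave to low windows 0.29 for H3K23me3 and 0.34 for H3K36me3, both turned, and 0.76 for H3K27me1, and to high windows −1.01 for H3K36me3 and 0.074 for H3K27me1. Medians over windows moved 22 of 48 ratios. They gave to low windows −2.93 for Pol2, −1.32 for H3K36me3, −0.95 for H3K27me3 and 1.10 for H3K27me1. To high windows H3K36me3 was −0.86, and acetylation minus methylation was 19.03 points (adjusted p = 0.0161, permutation test). Leaving out 5 Mb at each end gave 0.82 for H3K27me1 to low windows.

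The euchromatin minus constitutive difference passed 0.05 after adjustment with H3K9me2 peaks of a fold above 1.5 (19.5 points), limits of 15% and 50% (19.5), 5 Mb left out (23.1) and lists with a replicate tag (20.3). Acetylation minus methylation passed with the first, second and last of these (15.02, 14.1 and 16.2). Leaving out single chromosomes or lists gave 5.18 to 23.2 points for the first difference and 7.96 to 18.3 for the second. The second comparison was not run on broad lists, as fewer than 2 acetylation lists are broad. Smaller and larger windows, a shift of 50 kb, limits of 25% and 35% and the omission of sparsely covered windows kept both differences on their side of the threshold, as did each of the 11 chromosomes left out except chromosome 1. No ratio of any list moved when a chromosome was left out. Pooled over the other settings, 527 of 630 ratios of lists other than Pol2, H3K27me3, H3K27me1 and H3K36me3 stayed within 1 SD. Another 97 moved and 6 turned.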
